A study of Arabidopsis thaliana with 4 samples.

Results

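The loci described here are those that the Arabidopsis annotation assigns to the mitochondrial genome, whose identifiers start with ATMG. Of 33602 loci counted, 146 carried such an identifier, and the 41 with at least 10 reads summed over the libraries were taken as members. The members were thus chosen by their summed counts, so that they had counts is not a finding, and 2 of the 41, ATMG00020 and ATMG01390, are ribosomal RNA (rRNA) loci that were treated apart. The members just inside the threshold were ATMG00180 with 11 summed counts, ATMG00400 with 12 and ATMG00810 with 12, and the loci just outside it were ATMG00150 with 9, ATMG00010 with 8 and ATMG00630 with 8. The 105 loci outside it held 124 counts in all, and 72 of these were at 0 in every library.

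RNA came from root tips of Arabidopsis thaliana seedlings 4 days after germination, of Col-0, the reference accession, and of med16-2, a mutant of the gene for subunit 16 of the Mediator complex, which links transcription factors to RNA polymerase II. Each genotype was grown on agar medium holding 1 mM inorganic phosphate (Pi), called high Pi here and high phosphate in the plots, or 5 µM Pi, called low Pi. There was 1 library per group, 4 in all, so a ratio compares 1 library with another, without replication and without a p-value. Intervals below are 95% intervals that cover counting error alone, exact except for the difference of Pi ratios. Where 4 values stand in a row, their order is Col-0 with high Pi, Col-0 with low Pi, med16-2 with high Pi and med16-2 with low Pi.

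Plant mitochondria keep a small genome for a few subunits of the respiratory chain and of ATP synthase, for ribosomal RNAs, some ribosomal proteins and factors of cytochrome c assembly, while most of their proteins are encoded in the nucleus. Mitochondrial genes are transcribed by phage-type RNA polymerases encoded in the nucleus, not by RNA polymerase II, on which Mediator acts. Stable plant mitochondrial transcripts mostly lack a poly(A) tail, and in these organelles a tail marks RNA for degradation. The shares and ratios below are of reads in the libraries, and any effect on them of selecting RNA by its tail was not tested. The nuclear chromosome 2 of Arabidopsis carries a large insertion of mitochondrial DNA, so many mitochondrial genes have a near-identical nuclear copy.

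Sequence held by both genomes bears on what a mitochondrial locus can count, since reads that aligned to several places were listed apart from the gene counts. In the TAIR10.1 assembly, 70.6% of all 50-base windows of the mitochondrial genome also occurred on chromosomes 1 to 5, and 70.4% occurred on chromosome 2. Of the 33 protein-coding gene spans annotated there, 15 had every such window on those chromosomes and 5 had none. The rRNA genes rrn26 and rrn5 shared 0% of their windows and rrn18 shared 0.371%. The mitochondrial sequence against which the authors aligned was not used here, so these shares describe TAIR10.1. RefSeq's notes pair 53 of the 146 ATMG loci with 55 loci of chromosome 2, and these notes gave a function to 9 of the 41 members. The other members are given by identifier alone, since the reference pairs those identifiers with no gene. It ties the rRNA gene rrn5 to no ATMG identifier either, so the rrn5 locus may be among these members. In the mitochondrial genome rrn5 (MT:126001-126118) lies beside rrn18 (MT:126289-128223). ATMG01380, whose identifier comes just before that of the rRNA locus ATMG01390, is paired with no gene. It may be the rrn5 locus, which was not tested. Below, outside rRNA means without ATMG00020 and ATMG01390 alone.

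The sequences that follow show how alike the copies are for 3 members, and each run occurs letter for letter in both genomes (RefSeq, TAIR10.1, minus strand of the mitochondrial genome).
ATP synthase subunit 9 (ATMG01080; MT:271159-271218 and chr2:3252054-3252113, minus strand, in AT2G07671): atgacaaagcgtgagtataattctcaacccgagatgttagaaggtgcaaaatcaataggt
Cytochrome c oxidase subunit 3 (ATMG00730; MT:330714-330773 and chr2:3312592-3312651, minus strand, in AT2G07687): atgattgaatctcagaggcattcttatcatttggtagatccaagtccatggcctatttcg
NADH dehydrogenase 2B (ATMG01320; MT:95177-95236 and chr2:3336109-3336168, plus strand, in AT2G07689): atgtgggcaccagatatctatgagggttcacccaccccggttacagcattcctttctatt
Each run opens the coding sequence of the chromosome 2 locus. Over the whole coding sequence the identity to the mitochondrial genome was 100% for all 3, over 258, 798 and 645 bases. The mitochondrial positions are where that sequence matched and not annotated bounds of the members. The mitochondrial atp9 gene is annotated at MT:270961-271185, so the first run begins outside it. The match of AT2G07689 overlaps no mitochondrial gene that has a symbol.

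Gene counts ranged from 10079345 to 15696333 per library. MED16 (AT4G04920), the mutated gene, had counts of 420 (high Pi) and 747 (low Pi) for Col-0 and of 56 and 48 for med16-2. IPS1, a non-coding RNA induced by phosphate starvation, had 2 and 1077 counts in Col-0 and 7 and 366 in med16-2. The root tip regulators PLT1 and PLT2 had 136 to 310 counts in every library, while the quiescent centre gene WOX5 had 5, 56, 5 and 7. Of 4 genes of photosynthetic tissue, CAB1.1 was at 0 throughout, and RBCS1A, RCA and LHCB1.3 had 65 to 412 counts in the Col-0 libraries and 0 to 82 in the med16-2 libraries. The med16-2 library from low Pi stood apart. In it 36.6% of all reads listed had aligned to several places, against 6.65% to 9.27% in the other libraries, and the cytosolic 18S rRNA locus AT3G41768 took 1.37% of gene counts, against 0.0963% to 0.172%. The part of these differences in the results below was not tested.

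The mitochondrial share of gene counts was higher at low than at high Pi in both genotypes and lower in med16-2 than in Col-0 at both supplies. All ATMG loci together took 0.501% of gene counts with high Pi in Col-0, 1.25% in Col-0 at low Pi, 0.231% in med16-2 at high Pi and 1.03% in med16-2 at low Pi. Most of this was rRNA, as the 2 rRNA loci took 0.453%, 1.13%, 0.214% and 0.949% in the same order. The 39 other members took 0.0471% (0.0458 to 0.0485), 0.117% (0.115 to 0.119), 0.0173% (0.0166 to 0.018) and 0.077% (0.0754 to 0.0785). No 2 of these 4 intervals overlapped, and the low Pi library was the higher of each genotype. As a share of all reads listed, including those that name no gene, they took 0.0412%, 0.106%, 0.0155% and 0.0445%, in the same order of libraries. In a bulk sample, fewer cells of a type and less RNA per cell cannot be told apart.

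ATMG00030 alone held most of the counts outside rRNA. Without it, the remaining 38 members took 0.0089%, 0.0128%, 0.0038% and 0.0202% of gene counts, and their order differed, since med16-2 at low Pi was then the highest library. The 18S share given above was highest in that same library, whereas the plastid loci took 0.00812%, 0.0123%, 0.00336% and 0.0118%, with both low Pi libraries above both high Pi libraries.

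**Figure D1:**
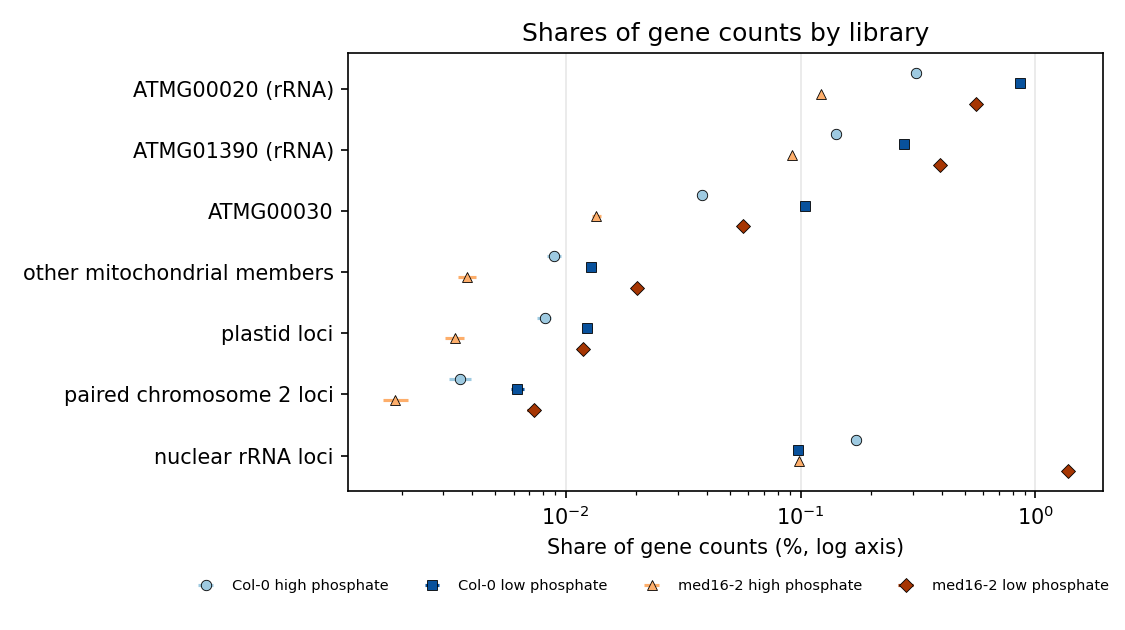
Share of gene counts (percent, log axis) taken by mitochondrial, plastid, chromosome 2 and nuclear rRNA loci in each of the 4 libraries; points are libraries and bars are exact 95% intervals, often smaller than the point. The med16-2 library from high Pi is lowest for every mitochondrial set, and the med16-2 library from low Pi is far to the right for nuclear rRNA.

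The rRNA loci carried the bulk of the members' counts and did not move in step with each other. ATMG00020 had 31386 counts in Col-0 at high Pi, 134912 in Col-0 at low Pi, 17381 in med16-2 at high Pi and 68365 in med16-2 at low Pi. ATMG01390 had 14320, 43210, 13144 and 48391 counts in that order. ATMG00020 was therefore highest in Col-0 at low Pi as a share of gene counts (0.86%, against 0.556% in med16-2 at low Pi), and ATMG01390 in med16-2 at low Pi (0.393%, against 0.275%). ATMG01390 had 0.456 (0.447 to 0.465) and 0.32 (0.317 to 0.324) reads per read of ATMG00020 in Col-0 at high and low Pi. In med16-2 it had 0.756 (0.739 to 0.774) and 0.708 (0.7 to 0.716). The proportion was thus higher in both med16-2 libraries than in either Col-0 library.

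ATMG00030, which the reference pairs with no gene, followed ATMG00020 closely. It had 3852, 16372, 1922 and 6988 counts, in the same library order. This was 0.123 (0.119 to 0.127) and 0.121 (0.119 to 0.123) reads per read of ATMG00020 in Col-0 at high and low Pi. In med16-2 it was 0.111 (0.105 to 0.116) and 0.102 (0.0997 to 0.105), lower than in either Col-0 library. The range was far narrower than that of ATMG01390. The libraries do not keep strand, so reads of an overlapping or antisense transcript would be counted here as well.

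Ratios between libraries were formed for members with a mean of at least 1 CPM (counts scaled to a common library size) over the 4 libraries after scaling by the trimmed mean of M values (TMM). Of the 41 members 26 passed this filter, 24 of them outside rRNA, and the 15 others had 11 to 49 summed counts. A locus is called higher or lower if its scaled counts differed at least 2-fold and the interval excluded equality. The filter uses the mean of the same libraries, so a low locus could pass through the library in which it was high, and the counts of calls below describe the members that passed. The 4 comparisons share libraries with one another, and their values are given side by side.

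**Figure D2:**
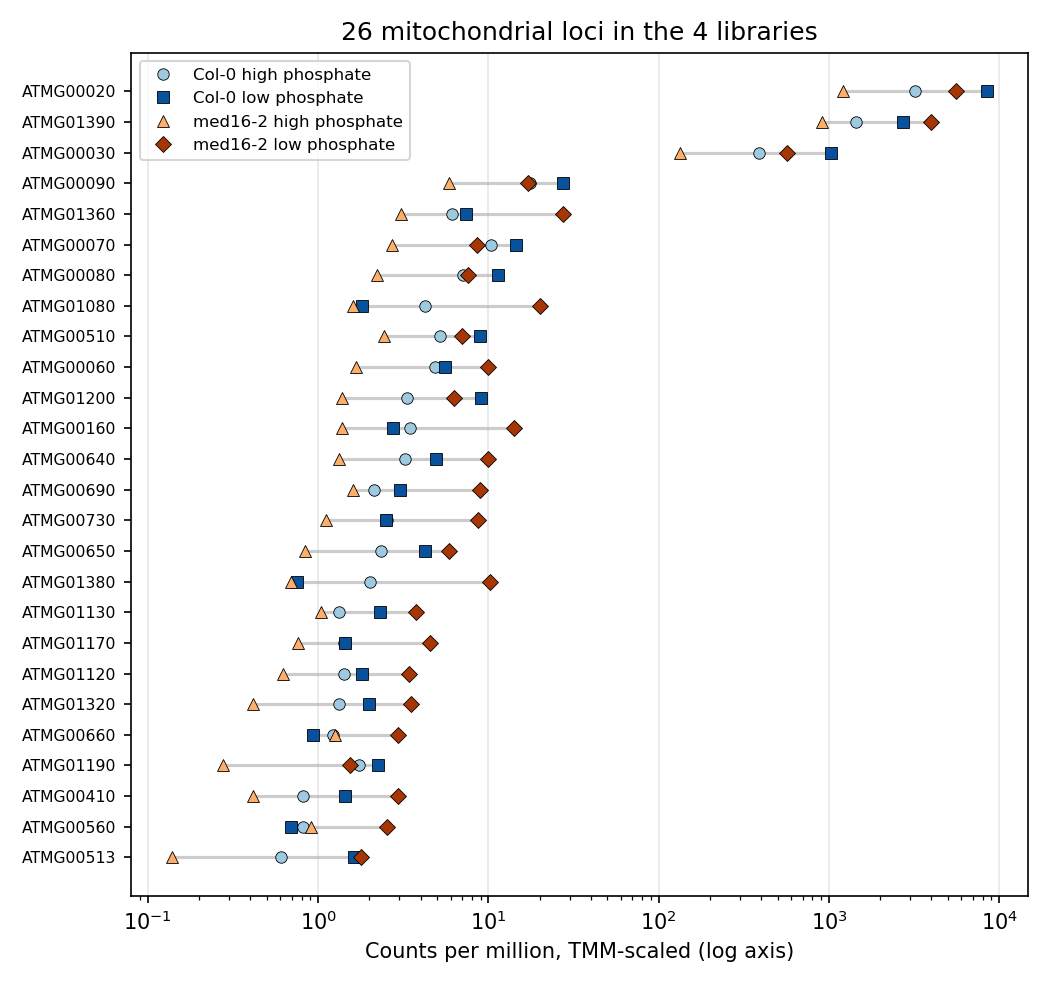
TMM-scaled CPM (log axis) of the 26 mitochondrial loci that passed the filter, ordered by summed counts; each point is 1 library. The highest library is med16-2 at low Pi for 18 loci and Col-0 at low Pi for 8, and the lowest is med16-2 at high Pi for 24.

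Low against high Pi in Col-0 moved 6 members past the rule. Of the 26 members 4 were higher, against 3.24% of all 18692 loci that passed the filter, and 2 were lower, against 1.49%. ATMG01200 had 33 counts at high and 145 at low Pi, a ratio of 2.71-fold (1.85 to 4.09). ATMG00020 was 2.65-fold higher (2.62 to 2.69), ATMG00030 was 2.62-fold higher (2.53 to 2.72) and ATMG00513, with 6 and 26 counts, was 2.67-fold higher (1.08 to 7.95). The lower loci were ATMG01380, at 20 and 12 counts, and ATMG01080, the ATP synthase subunit 9 locus, at 42 and 29 counts. Their scaled counts were 2.70-fold (1.26 to 6.06) and 2.35-fold (1.43 to 3.91) lower. ATMG00660 (12 and 15 counts) and ATMG00160 (34 and 44 counts) were next in the order and their intervals included equality. The median log2 ratio of the 24 members outside rRNA was 0.49, with 18 of them above 0, beside -0.02 over all loci tested.

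In med16-2 the same comparison placed every member that passed the filter above the rule. All 26 were higher, against 2.26% of all loci, and none was lower, against 1.03%. The median log2 ratio outside rRNA was 2.49, and the values ran from 1.21 for ATMG00660 to 3.81 for ATMG01380, beside a median of -0.01 over all loci. With no filter, 31 of all 41 members met the rule. ATMG01380 had 10 counts at high and 125 at low Pi (14.7-fold higher, 7.72 to 31.3), and ATMG01080 had 23 and 247 (12.6-fold, 8.21 to 20.3). ATMG00513 had 2 and 22 counts (12.9-fold, 3.17 to 113.0), and ATMG00160 had 20 and 174 (10.2-fold, 6.41 to 17.1). The smallest ratios were those of ATMG00660 (18 and 36 counts, 2.35-fold), ATMG00560 (13 and 31, 2.80-fold), ATMG00090 (85 and 208, 2.87-fold) and ATMG00510 (35 and 86, 2.88-fold). The 18S rRNA locus was 14.3-fold higher in the same pair of libraries, and of the 30 plastid loci tested 26 were higher. Their part in the mitochondrial result was not tested.

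**Figure D3:**
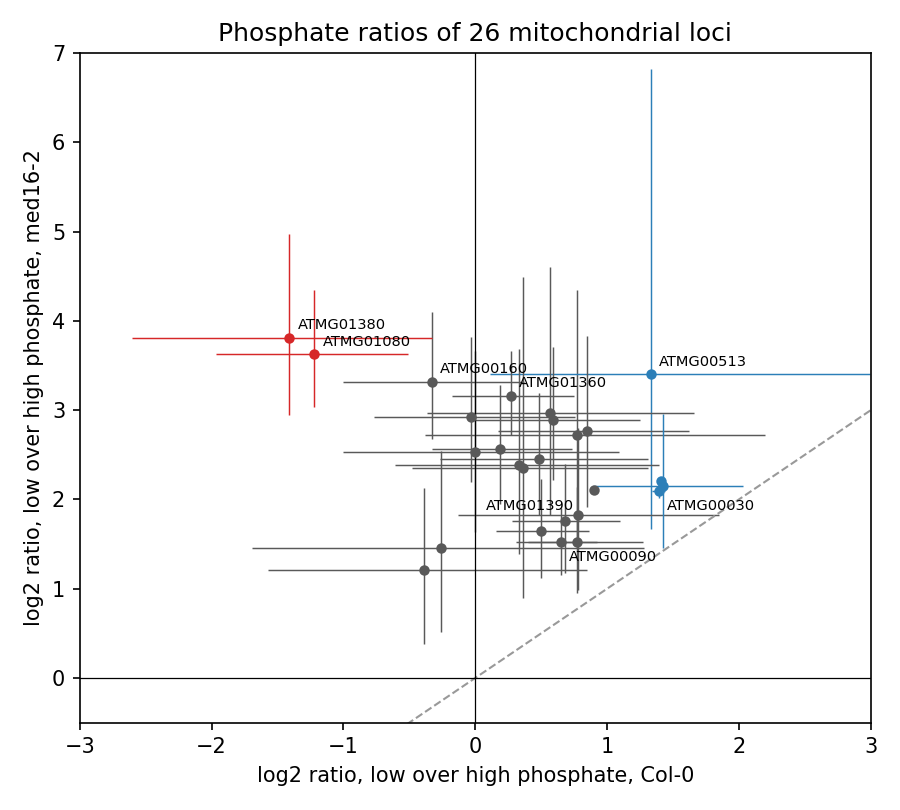
Log2 ratio of low over high Pi in Col-0 (horizontal) and med16-2 (vertical) for 26 mitochondrial loci, with exact 95% intervals as bars; blue and red mark loci called higher and lower in Col-0, and the dashed line is equality of both ratios. Every point lies above the line, and ATMG01380 and ATMG01080 lie at the upper left.

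The difference between these ratios, med16-2 over Col-0 on the log2 scale, met the rule in 19 of the 26 members, all higher in med16-2, against 2.3% of all loci higher and 2.16% lower. The median outside rRNA was 1.98. Plastid loci went the same way, as 11 of the 30 tested were higher and 0 lower, with a median of 1.07. The loci with the largest difference were ATMG01380 (5.22, 3.86 to 6.58), ATMG01080 (4.85, 3.94 to 5.76), ATMG00160 (3.65, 2.73 to 4.57) and ATMG00730 (2.95, 1.92 to 3.99). Those with the smallest were ATMG00030 (0.70), ATMG01200 (0.73), ATMG00510 (0.74) and ATMG00020 (0.80). The second rRNA locus, ATMG01390, had a difference of 1.21 and met the rule, whereas ATMG00020 did not.

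At high Pi most members that passed the filter were lower in med16-2 than in Col-0. Of the 26 members 16 were lower, against 6.34% of all loci, and none was higher, against 0.712%. ATMG01190, the ATP synthase subunit 1 locus, had 17 counts in Col-0 against 4, and was 6.21-fold lower in med16-2 (2.03 to 25.4). ATMG00070 had 101 and 39 counts (3.78-fold lower, 2.59 to 5.63), and ATMG00080 had 70 and 32 (3.20-fold lower, 2.08 to 5.02). ATMG00513, at 6 and 2 counts, had an interval that included equality. ATMG00560 (8 and 13 counts), ATMG00660 (12 and 18), ATMG01130 (13 and 15) and ATMG00690 (21 and 23) had scaled ratios closest to or above equality, and none met the rule. The median log2 ratio outside rRNA was -1.29, beside 0.02 over all loci. Plastid loci were lower as well in 19 of 30 cases, with a median of -1.37.

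At low Pi the members split. Of the 26 members 11 were higher in med16-2, against 1.04% of all loci, and none was lower past the rule, against 6.14%. Of the 8 members below equality 6 had an interval excluding it, and of the 18 above equality 16 did. The 8 below were ATMG00020, ATMG00030, ATMG00070, ATMG00080, ATMG00090, ATMG00510, ATMG01190 and ATMG01200. ATMG00030 was 1.80-fold lower in med16-2 (1.75 to 1.85), followed by ATMG00070 at 1.70-fold, ATMG00090 at 1.62-fold and ATMG00020 at 1.52-fold lower. The highest were ATMG01380, with 12 and 125 counts (Col-0, then med16-2; 13.6-fold, 7.49 to 26.9), and ATMG01080, with 29 and 247 (11.1-fold, 7.53 to 16.9). ATMG00160 had 44 and 174 counts (5.15-fold, 3.68 to 7.34) and ATMG01360 had 118 and 338 (3.73-fold, 3.01 to 4.64). The median log2 ratio outside rRNA was 0.88 with a mean of at least 1 CPM and -0.43 with a mean of at least 5 CPM, so its direction depended on which loci were kept.

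**Figure D4:**
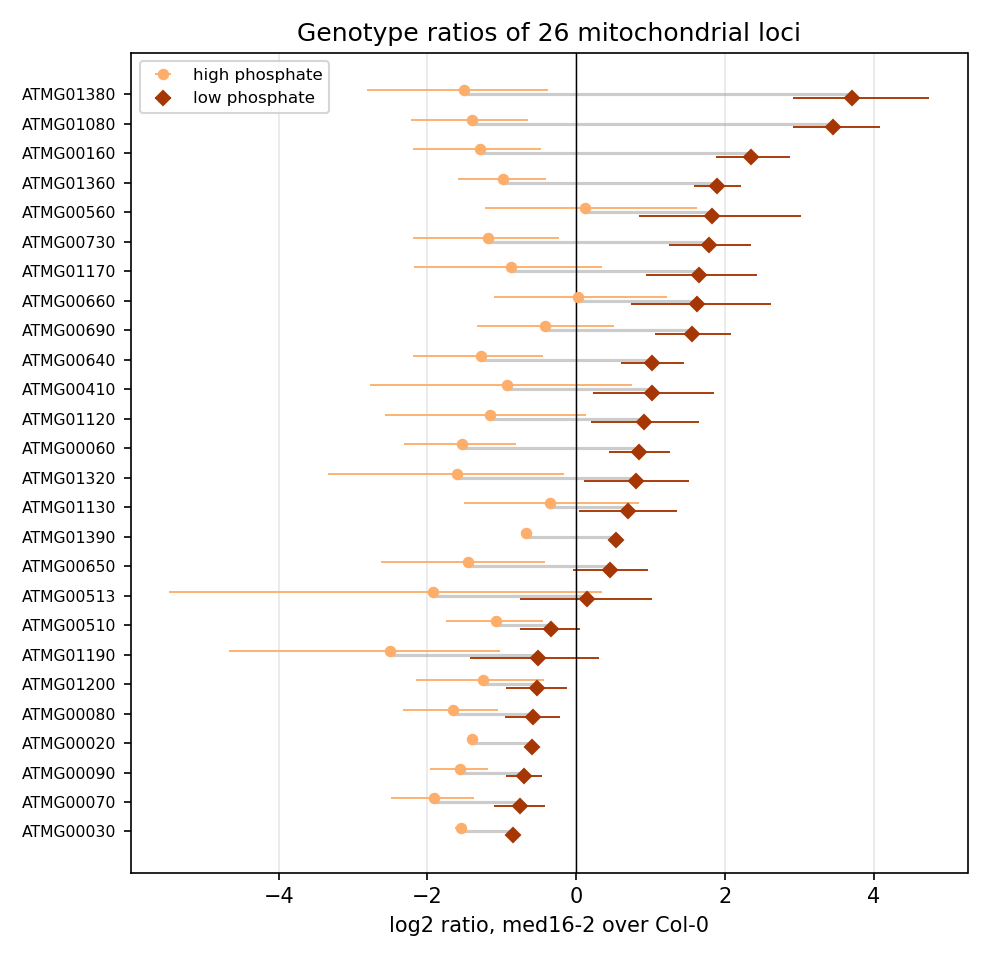
Log2 ratio of med16-2 over Col-0 for 26 mitochondrial loci at high Pi (light circles) and low Pi (dark diamonds), ordered by the value at low Pi; bars are exact 95% intervals. All but 2 circles lie below 0, whereas the diamonds run from -0.85 for ATMG00030 to 3.71 for ATMG01380.

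In the high Pi libraries, which the split did not use, the median genotype log2 ratio was -1.56 for the 8 members below equality and -1.17 for the 18 above. The Pi ratios share the low Pi libraries with the split, which builds part of their difference in. Their medians were 0.72 and 0.30 in Col-0 and 1.92 and 2.74 in med16-2. Proportions between single loci were also compared. ATMG01360 had 0.349 and 0.269 reads per read of ATMG00090 in Col-0 at high and low Pi, 0.518 in med16-2 at high Pi and 1.62 (1.36 to 1.94) in med16-2 at low Pi. ATMG01080 had 0.244, 0.0661, 0.271 and 1.19 (0.983 to 1.43) reads per read of ATMG00090. For both loci the proportion was highest in med16-2 and lowest in Col-0, each at low Pi. For ATMG01360 the Col-0 intervals overlapped, at 0.256 to 0.471 with high and 0.217 to 0.33 with low Pi. ATMG01360 and ATMG01080 lie above equality in the split and ATMG00090 below it. A higher proportion in med16-2 than in Col-0 at low Pi is therefore built in and adds nothing to the split.

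Scaling to the summed counts of the 39 members outside rRNA, in place of all genes, placed loci against the rest of the mitochondrial set. In Col-0, 7 of 24 members (29.2%) fell behind that total at low Pi, led by ATMG01380 (log2 -2.67), ATMG01080 (-2.48) and ATMG00660 (-1.64). In med16-2, 3 of 24 (12.5%) ran ahead of it, ATMG01380 (1.64), ATMG01080 (1.45) and ATMG00160 (1.15). Between genotypes at high Pi 3 (12.5%) were higher relative to it, ATMG00560 (1.61), ATMG00660 (1.51) and ATMG00690 (1.07). At low Pi 16 (66.7%) were higher, led by ATMG01380 (4.29), ATMG01080 (4.03) and ATMG00160 (2.93). ATMG00030 makes up most of that total. With the median ratio of the members as the reference, only ATMG01080 and ATMG01380 were lower in Col-0, 2 in place of 7, and ATMG00660 was at -0.87 and not called. In med16-2 ATMG00160 (0.83) was not called and ATMG00660 was lower (-1.28). Between genotypes ATMG00690 (0.87) was not called at high Pi, and the split at low Pi was 4 higher and 7 lower.

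Among the members to which the notes give a function, those of ATP synthase, the enzyme that makes ATP from the proton gradient, were not all highest in the same library. ATMG01080, for subunit 9 of the membrane ring, had 42, 29, 23 and 247 counts in the library order used above. ATMG01090, which the notes also name ATP synthase 9, had 2, 8, 4 and 34 counts and did not pass the filter. ATMG01190, for subunit 1 of the catalytic head, had 17, 36, 4 and 19 counts. ATMG00410, for the membrane subunit 6, had 8, 23, 6 and 36 counts. In Col-0 at low Pi ATMG01080 was below its high Pi level, while the counts of ATMG01190 and ATMG00410 gave intervals that included equality. The highest library was med16-2 at low Pi for ATMG01080, ATMG01090 and ATMG00410, and Col-0 at low Pi for ATMG01190.

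ATMG00730 encodes subunit 3 of cytochrome c oxidase, the last complex of the respiratory chain. Its counts were 25, 40, 16 and 106, in the same order. It was 2.28-fold lower in med16-2 than in Col-0 at high Pi (1.17 to 4.58) and 3.45-fold higher at low Pi (2.38 to 5.09). ATMG01320, for NADH dehydrogenase 2B, of complex I at the entry of the chain, had 13, 32, 6 and 43 counts. It was 3.17-fold lower (1.12 to 10.2) in med16-2 than in Col-0 at high Pi, and its ratio at low Pi, 1.75-fold (1.08 to 2.86), was under the size rule. ATMG00560, a nucleic acid-binding protein with an OB fold whose chromosome 2 partner matches the mitochondrial rpl2 gene for ribosomal protein L2, had 8, 11, 13 and 31 counts. ATMG00960 and ATMG00180, both of cytochrome c assembly, had 8, 14, 5 and 6 counts and 3, 6, 1 and 1 counts, and neither passed the filter. Between genotypes at low Pi the intervals of ATMG00960, ATMG00180 and ATMG01190 all included equality.

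Reads were also assigned to the chromosome 2 partners, which match the mitochondrial genome to different extents. The coding sequences of AT2G07671 and AT2G07687 matched it in full, that of AT2G07715 over 77.5%, that of AT2G07698 over 64.7% and that of AT2G07706 over 15.4%. Of the 53 paired ATMG loci 10 were members (18.9%), against 31 of 93 unpaired loci (33.3%), and 28 of the 53 and 44 of the 93 were at 0 in every library. Unpaired means only that no note names the locus. Of the 33 protein-coding gene spans, 25 shared at least 50% of their 50-base windows with the chromosomes, so unpaired loci can also lie in shared sequence. In 19 of the 55 pairs only the nuclear locus had counts, in 10 only the mitochondrial locus, in 15 both and in 11 neither. AT2G07671, the partner of ATMG01080, had 34, 21, 10 and 153 counts, lowest in med16-2 at high Pi and highest in med16-2 at low Pi, as ATMG01080 was. Its ratio of low over high Pi was 0.385 (0.21 to 0.676) in Col-0 and 17.2 (9.5 to 38.2) in med16-2, and both met the rule.

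AT2G07687, the partner of ATMG00730, had 19, 39, 15 and 69 counts. AT2G07698, the partner of ATMG01190, had 131, 389, 72 and 235 counts, again highest in Col-0 at low Pi as the mitochondrial locus was. AT2G07727, the partner of the apocytochrome b locus ATMG00220, had 38, 145, 27 and 93 counts, while ATMG00220 itself was at 0 in every library. Of the 8 chromosome 2 partners that passed the filter, 3 were higher and 1 lower with low Pi in Col-0, beside 3.24% and 1.49% of all loci, and 7 were higher in med16-2, beside 2.26%. Between genotypes 5 were lower at high Pi, beside 6.34%. At low Pi 2 were higher, beside 1.04%, and 1 was lower, beside 6.14%. In the difference of Pi ratios 3 were higher, beside 2.3%, and 0 lower, beside 2.16%. For the partners that match in full, from which genome these counts arose was not tested. AT2G07698 also has coding sequence outside its match.

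**Figure D5:**
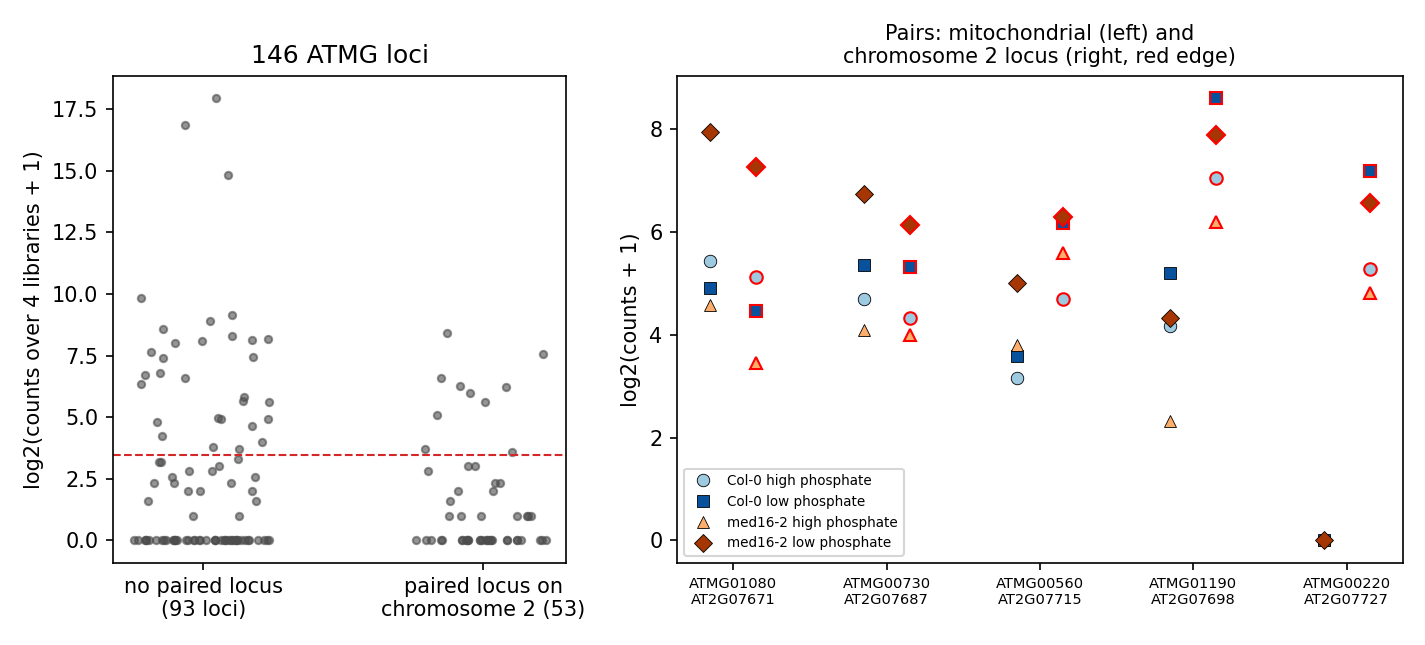
Left, log2 of counts over 4 libraries plus 1 for the 93 ATMG loci without and the 53 with a paired chromosome 2 locus, with the membership threshold dashed (horizontal scatter has no meaning). Right, log2 of counts plus 1 per library for 5 pairs, the mitochondrial locus at left and its chromosome 2 partner at right with a red edge; ATMG00220 is at 0 in all 4 libraries while AT2G07727 has 27 to 145 counts.

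None of the listed nuclear genes of mitochondrial function that were tested met the rule in any comparison. These were the 34 nuclear respiratory chain genes, the 11 of 18 genes of alternative respiration and mitochondrial stress that passed the filter, and the 18 genes of mitochondrial transcription and RNA processing. The shares of all loci called, 0.712% to 6.34% per direction, are low enough that 0 calls in lists of this size is near the background. In med16-2, where the mitochondrial median was 2.49, the medians of the 3 lists with low Pi were -0.04, 0.03 and 0.04. The genotype medians at high Pi were -0.01, -0.04 and 0.20, and at low Pi 0.09, -0.08 and 0.34. Succinate dehydrogenase subunit gene SDH1-1 had 4598, 6086, 6500 and 4802 counts, and CYTC-2, for cytochrome c, had 808, 1027, 726 and 678. The polyribonucleotide nucleotidyltransferase gene AT5G14580 had 289, 322, 420 and 420 counts, with a log2 ratio of 0.76 between genotypes at low Pi, the largest of its list in that comparison. DIC2, a mitochondrial dicarboxylate carrier gene, had 443, 934, 380 and 548 counts and a log2 ratio of 0.76 with low Pi in med16-2.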

How the data were processed

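Per the labels' protocols, a TruSeq RNA kit was used on 5 µg of root tip RNA, and strand was not kept. The authors deposited raw counts, as whole reads per locus, in 1 file for each library and did not normalize them. The build was TAIR10 and the tools were HTSeq 0.6.0, TopHat2 2.0.9 and Trimmomatic 0.35, per the submitters' processing notes; no source used here gives their settings. Lines that name no gene, among them reads aligned to several places, took 12.5%, 9.89%, 10.1% and 42.1% of all reads listed in Col-0 with high Pi, Col-0 with low Pi, med16-2 with high Pi and med16-2 with low Pi, and were kept out of library sizes. Groups came from the sample titles, which name the genotype and the Pi supply.

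Libraries were scaled with edgeR 4.0.16 (TMM factors 0.9774, 1.017, 1.0091 and 0.997). Log2 ratios used counts plus 0.5 over the effective library size, and folds and their exact intervals (Clopper-Pearson, from the share each library held of the pair) used the counts without it. The interval of the difference of phosphate ratios was a normal approximation whose variance summed 1/(count + 0.5) over the libraries. The same rule over all loci gave the background. With 1 library per group no test of conditions was run, a model of both factors over the 4 libraries included. The limit set by 0 reads, taken as 3, was 0.298, 0.191, 0.21 and 0.244 scaled CPM. Pairs with chromosome 2 loci came from RefSeq's notes, and the coding sequences of paired loci were aligned to the mitochondrial genome with BLAST+ 2.17.0. Exact windows shared between the genomes were counted in TAIR10.1.

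The members and gene lists were chosen with earlier results of these data known. Loci named in the text were the rRNA loci, the 4 highest and 4 lowest ratios per comparison, the 3 largest departures from the mitochondrial total per direction, the loci at the membership threshold and up to 4 members of each nuclear list with the largest ratios. Of each nuclear list only examples are printed. ATMG00030, ATMG01360 as a proportion and the chromosome 2 pairs were added after their values were seen. A grouping of all members by function could not be applied, because the reference pairs few of the identifiers with a gene. Levels were not compared between loci, since lengths were not used.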

Additional observations from a re-analysis of the deposited data

Results flagged for a closer look

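These loci met the size rule in opposite directions in paired contrasts, each of 1 library per group, so the difference has no replicate check and was not tested. With low Pi ATMG01080 had a log2 ratio of -1.22 in Col-0 and 3.63 in med16-2, and ATMG01380 had -1.41 and 3.81. Between genotypes, at high and then low Pi, ATMG01080 had -1.4 and 3.45, ATMG01380 had -1.51 and 3.71, ATMG00160 had -1.3 and 2.35, ATMG00730 had -1.18 and 1.78, and ATMG00640 had -1.28 and 1.02. The second value of each pair uses the med16-2 library from low Pi, in which 36.6% of reads had aligned to several places and the 18S rRNA locus took 1.37% of gene counts. ATMG01380 is paired with no gene and may itself be an rRNA locus, which was not tested.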

How the results depend on the processing

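With 1 library per group no replicate could be left out of a group. No paired analysis was possible because each group holds 1 library. Scaling by total gene counts, by DESeq2 size factors or by library sizes without organelle and rRNA loci kept the direction of the 4 medians between libraries and each count of calls within 1.5 times, and the median of the difference of ratios was not recomputed. A mean of at least 5 CPM left 12 members, and 12 of these were called with phosphate in med16-2. Between genotypes 10 were called at high and 3 at low Pi, and 7 in the difference of phosphate ratios. Among the 26 members these counts were 26, 16, 11 and 19. The share called was thus lower at low Pi between genotypes and in the difference, and higher at high Pi between genotypes. The median log2 ratio was then 2.12 in med16-2 and -1.47 between genotypes at high Pi, and at low Pi it changed sign to -0.43. With no filter the med16-2 median was 2.15. With a pseudocount of 5 the medians were 0.34 in Col-0, 2.15 in med16-2 and -1.18 between genotypes at high Pi. Leaving out loci paired with chromosome 2, chosen after seeing the data in place of a planned protein identity rule that was not run, gave 7 calls and a median of 0.77 between genotypes at low Pi. Pairs rest on RefSeq's notes, and loci without a note can also lie in sequence shared with the chromosomes. This setting therefore does not separate loci with a nuclear copy from those without. Scaling without the med16-2 low Pi library, also chosen after seeing the data, gave 5 calls and a median of 0.48 for phosphate in Col-0, and 16 calls and a median of -1.3 between genotypes at high Pi. With the median ratio of the members, or a total without the 3 members with the most counts, as the mitochondrial reference, 2 and 2 loci departed in Col-0 in place of 7. At low Pi these references gave 4 higher and 7 lower, and 5 higher and 7 lower, between genotypes in place of 16 higher, and with phosphate in med16-2 each gave 2 higher and 1 lower in place of 3 higher. As a share of all reads listed, the 39 members outside rRNA took 0.0412%, 0.106%, 0.0155% and 0.0445%, in the order Col-0 at high and low Pi and med16-2 at high and low Pi. As a share of counts without plastid and rRNA loci they took 0.0788% in med16-2 at low Pi. Loci with few counts set the limit: below about 10 counts in a library the interval of a ratio spans several-fold.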
